A study of Arabidopsis thaliana with 8 samples.

Results

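*UGT76B1*, *GRX480* and *SAG101* are genes of SA homeostasis and signalling, and their transcript levels were followed on all 8 ATH1 arrays of the series. These 3 were fixed by name, with earlier results of these data known, and other genes of this kind are also measured below. They are read by probe sets (the groups of short probes that read a transcript) annotated to exactly 1 gene. Each has 1 such probe set, so the 3 members stand among 13355 genes named in this way and among 22746 probe sets tested. *UGT76B1* (AT3G11340) lies on chromosome 3 at chr3:3556554-3558361, *GRX480* (AT1G28480) on chromosome 1 at chr1:10013434-10014256 and *SAG101* (AT5G14930) on chromosome 5 at chr5:4828499-4830982, all by the gene table of assembly TAIR10.1.

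SA (salicylic acid) is a plant hormone that is made during attack by biotrophic pathogens and that switches on defence genes in the attacked leaf and, later, in distant leaves. Its free level is held in check by enzymes that join it to glucose or to amino acids, hydroxylate it or methylate it. Much of its effect on transcription runs through NPR1, a coactivator that binds no DNA itself and works with TGA transcription factors. *UGT76B1* codes for a glucosyltransferase that acts on SA and on related immune metabolites. *GRX480*, also called *ROXY19*, codes for a small plant-type glutaredoxin that binds TGA factors. *SAG101* codes for a lipase-like protein that pairs with EDS1 in the immune signalling of intracellular TIR-type receptors.

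The arrays came from complete seedlings of *A. thaliana*, grown in MS medium for 2 weeks and then kept for 24 h in water or in 2 mM SA in place of that medium. The genotypes were Col-0 (the wild-type) and *npr1-1*, a mutant of *NPR1*. The 4 groups were Col-0 water, Col-0 SA, *npr1-1* water and *npr1-1* SA, with 2 arrays each that are titled biological replicates, so that water-treated seedlings of the same genotype are the control of each SA group. The transcript of *NPR1* itself is not analysed here, and no array checks the genotype directly. Since *UGT76B1* moved in opposite directions with SA in Col-0 and by the labels of the *npr1-1* arrays, the *npr1-1* arrays are called by their labels. Any direction given within *npr1-1* depends on those labels being right.

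All levels below are the deposited log2 values of a probe set, on which a difference of 1 is a doubling. Levels of different genes are not compared, because probe sets differ in brightness. Over the probe sets, replicates correlated at r = 0.994 to 0.996, and r between groups was 0.922 to 0.966. Differences were tested with limma over all probe sets, and those with an adjusted p under 0.05 are said to be called. In RNA of whole seedlings, fewer cells of a type and less RNA per cell cannot be told apart.

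**Figure D1:**
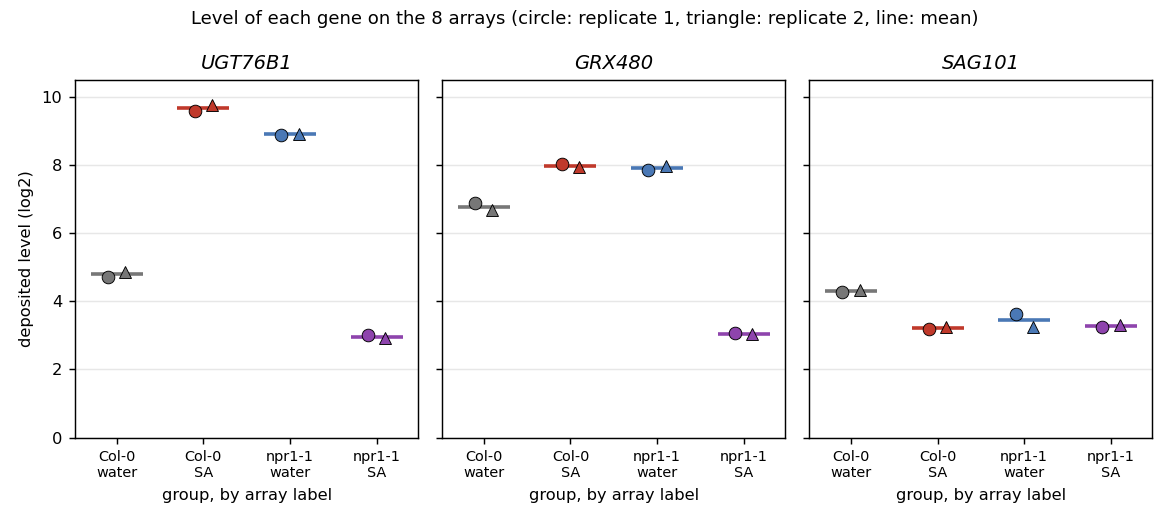
Deposited log2 level (vertical axis) of *UGT76B1*, *GRX480* and *SAG101* on each of the 8 arrays, by group label (horizontal axis), with a circle for replicate 1, a triangle for replicate 2 and a line at the mean of the 2 arrays. *UGT76B1* and *GRX480* are lowest on the arrays labelled *npr1-1* SA (2.96 and 3.05), while *SAG101* is highest in Col-0 water (4.31) and between 3.19 and 3.62 on the other arrays.

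*UGT76B1* had the widest span of the members. In Col-0 its level was 4.71 and 4.87 on the water arrays and 9.57 and 9.75 on the SA arrays. On the *npr1-1* arrays it was 8.88 and 8.92 where the label is water and 3.01 and 2.92 where the label is SA. The gene was therefore high under SA in Col-0 and under the water label in *npr1-1*, and low on the other 4, and no groups overlapped. The group means were 4.79 ± 0.115 (SD, n = 2), 9.66 ± 0.121 (SD, n = 2), 8.90 ± 0.0331 (SD, n = 2) and 2.96 ± 0.0663 (SD, n = 2) in the order named. This is a 104-fold range from the lowest to the highest.

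With SA, *UGT76B1* rose 29.3-fold in Col-0, a log2 difference of 4.87 (standard error 0.124, 95% interval 4.60 to 5.14, adjusted p = 7.08e-10 from limma). Of all probe sets 10.1% were called higher in this comparison, and only 10 had a higher log2 difference. Between the *npr1-1* labels the difference was −5.94 (standard error 0.124, adjusted p = 5.67e-11 from limma), where 13.4% of probe sets were called lower and 14 had a lower value. The 2 differences were themselves different by −10.81 on the log2 scale (standard error 0.175, 95% interval −11.19 to −10.43, adjusted p = 3.85e-12 from limma). This test of genotype by SA, the interaction, called 32% of all probe sets and 15% in this direction.

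Ordered by level, *UGT76B1* went from Col-0 SA through the arrays labelled *npr1-1* water and Col-0 water down to those labelled *npr1-1* SA. Each of these steps passed the test. The arrays labelled *npr1-1* water lay below Col-0 SA by 0.76 (95% interval 0.49 to 1.03, adjusted p = 0.000582 from limma). They lay above Col-0 water by 4.11 (adjusted p = 1.47e-09 from limma), where 14.2% of probe sets were called higher. The arrays labelled *npr1-1* SA lay below Col-0 water by 1.82 (adjusted p = 9.64e-07 from limma) and below Col-0 SA by 6.70 (adjusted p = 2.46e-11 from limma). In the last comparison 20.9% of probe sets were called higher and 18.4% lower, and 7 had a lower difference than *UGT76B1*.

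*GRX480* followed the same order of groups with a smaller change in Col-0. Its level was 6.87 and 6.67 in Col-0 water and 8.02 and 7.93 in Col-0 SA. The label *npr1-1* water held 7.85 and 7.97, and the label *npr1-1* SA held 3.06 and 3.05. The arrays of Col-0 SA and of *npr1-1* water overlapped, and those labelled *npr1-1* SA stood far below the rest. The group means were 6.77 ± 0.144 (SD, n = 2), 7.98 ± 0.0642 (SD, n = 2), 7.91 ± 0.0897 (SD, n = 2) and 3.05 ± 0.00921 (SD, n = 2).

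SA raised *GRX480* in Col-0 by 1.21 on the log2 scale, or 2.31-fold (standard error 0.123, 95% interval 0.94 to 1.48, adjusted p = 2.31e-05 from limma). The *npr1-1* arrays differed by −4.86 with the label (standard error 0.123, 95% interval −5.13 to −4.59, adjusted p = 2.91e-10 from limma), a 29.0-fold lower level under the SA label. The interaction was −6.06 (95% interval −6.45 to −5.68, adjusted p = 6.79e-10 from limma). In size, 4.92% of all probe sets had a larger difference than *GRX480* in Col-0, against 0.0923% by the *npr1-1* labels. The arrays labelled *npr1-1* water differed from Col-0 SA by −0.06 (95% interval −0.33 to 0.21, adjusted p = 0.773 from limma), so that a difference between them was not detected. They were above Col-0 water by 1.14 (adjusted p = 3.09e-05 from limma). The arrays labelled *npr1-1* SA were below Col-0 water by 3.71 (adjusted p = 1.26e-08 from limma), where 13.4% of probe sets were called lower.

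*GRX480* is also the only one of the 3 for which the study lists its own QPCR primers, which are shown here because they tell which parts of the gene its other measurements read. One pair was used on the promoter, for nucleosomal occupancy, and the other on the transcript. Their QPCR values are not used here. The promoter primers have 36.7% and 34.6% G or C, and the transcript primers 60.0% each. In 5′ to 3′ direction, all in lower case, they read
promoter forward: ttcctctctgatctctctttcttcatgtat
promoter reverse: cgttccttgcattttcaagtatgttt
transcript forward: cagggaaacggcgagagagt
transcript reverse: gcagcctcctcaccacatga

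*SAG101* was high in 1 group only. Its level was 4.28 and 4.34 in Col-0 water, and 3.19 and 3.25 in Col-0 SA. With the label *npr1-1* water it was 3.62 and 3.25, and with the label *npr1-1* SA it was 3.23 and 3.31. All 6 arrays outside Col-0 water thus lay between 3.19 and 3.62, below the lower Col-0 water array, and those of the other 3 groups were intermingled apart from 1 array labelled *npr1-1* water. The group means were 4.31 ± 0.0455 (SD, n = 2), 3.22 ± 0.0384 (SD, n = 2), 3.44 ± 0.259 (SD, n = 2) and 3.27 ± 0.0513 (SD, n = 2).

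*SAG101* fell with SA in Col-0 by 1.09 on the log2 scale, or 2.13-fold (standard error 0.137, 95% interval −1.39 to −0.79, adjusted p = 0.000107 from limma), where 13.4% of all probe sets were called lower. By the *npr1-1* labels the difference was −0.17 (95% interval −0.47 to 0.13, adjusted p = 0.461 from limma) and did not pass. It was 0.02 without replicate 1 of the arrays labelled *npr1-1* water. The interaction was 0.93 (95% interval 0.50 to 1.35, adjusted p = 0.00279 from limma), a direction in which 16.9% of probe sets were called. As labelled, its sign was opposite to that of *UGT76B1* and *GRX480*. This contrast, and the size of each interaction, rest on the *npr1-1* labels. With the water and SA labels of *npr1-1* exchanged, the interaction was 1.06 for *UGT76B1*, 3.65 for *GRX480* and 1.26 for *SAG101* (adjusted p = 0.00153, 2.78e-07 and 0.000962 from limma), all of 1 sign.

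Both *npr1-1* groups also lay below Col-0 water for *SAG101*. It was 0.88 lower on the arrays labelled *npr1-1* water (adjusted p = 0.000509 from limma), where 12.7% of probe sets were called lower. It was 1.04 lower on those labelled *npr1-1* SA (adjusted p = 0.000125 from limma). Between the other 3 groups no difference passed. The arrays labelled *npr1-1* water differed from Col-0 SA by 0.22 (95% interval −0.08 to 0.52, adjusted p = 0.287 from limma), and those labelled *npr1-1* SA differed from Col-0 SA by 0.05 (95% interval −0.25 to 0.35, adjusted p = 0.827 from limma). This last sign turned when each array was centred on its median (−0.08).

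**Figure D2:**
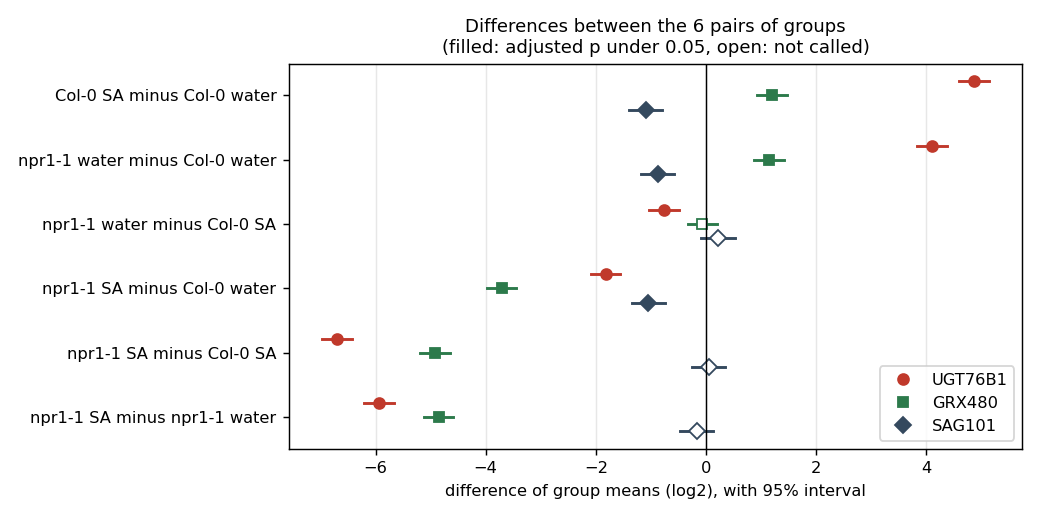
Difference of group means on the log2 scale (horizontal axis) for each of the 6 pairs of groups (vertical axis), with the 95% interval from limma as a bar, for *UGT76B1* (circles), *GRX480* (squares) and *SAG101* (diamonds). Filled points had an adjusted p under 0.05. *UGT76B1* was called in all 6 pairs, *GRX480* in 5 and *SAG101* in the 3 that include Col-0 water.

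Over the 6 pairs of groups, *UGT76B1* was called in 6, *GRX480* in 5 and *SAG101* in 3. The share of all probe sets called was 23.5% for SA in Col-0, 28.2% between the *npr1-1* labels, 27% between the genotypes in water and 39.3% between them under SA. It was 28.5% for *npr1-1* SA against Col-0 water and 29.1% for *npr1-1* water against Col-0 SA. The spread of the replicates was small for *UGT76B1* and *GRX480*, with a pooled SD of 0.0914 and 0.0910 over the groups. It was 0.135 for *SAG101*, and the median probe set had 0.134. With the Col-0 arrays fitted alone, the 3 responses to SA kept their calls (adjusted p = 7.69e-06, 0.000779 and 0.000732 from limma for *UGT76B1*, *GRX480* and *SAG101*).

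The 17 other genes on a list of the UGT76 family, to which *UGT76B1* belongs, all have a probe set of their own. These enzymes move glucose onto small molecules, among them cytokinins for *UGT76C1* and *UGT76C2*. In Col-0, 2 of the 17 rose with SA, 1 fell and 14 did not pass, where 10.1% of all probe sets were called higher and 13.4% lower, with a median log2 difference of 0.08 against 0.02 over all probe sets. By the *npr1-1* labels 3 were higher and 2 lower under SA, where 14.8% and 13.4% of all probe sets were. In both comparisons their differences stayed far inside that of *UGT76B1*, between −0.55 and 0.87 in Col-0 and between −1.13 and 0.83 by the *npr1-1* labels. The interaction was called positive for 2 of the 17 and negative for 3, against 16.9% and 15% of all probe sets. Several of them were dim in every group, where a response could be missed. Group means were 0.27 to 0.34 for AT3G46720 and 0.27 to 0.54 for AT3G55710, with array medians of 1.34 to 1.48. Others were brighter, such as AT3G46700 at 2.62 to 5.41.

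*UGT76E12* (AT3G46660) was 0.76 higher with SA in Col-0 (adjusted p = 0.00290 from limma) and had an interaction of −0.85, but without moderation of the variance neither passed (adjusted p = 0.0697 and 0.0886). *UGT76D1* (AT2G26480) had mean levels of 1.41, 1.73, 2.06 and 0.94 in Col-0 water, Col-0 SA, *npr1-1* water and *npr1-1* SA by label. Its interaction was −1.44 (adjusted p = 6.42e-05 from limma), while its rise of 0.31 in Col-0 did not pass (adjusted p = 0.108 from limma). *UGT76C2* (AT5G05860) and the listed locus AT5G05890 had interactions of 0.78 and 1.02 in the other direction. Near-identical relatives can share signal on a chip of short probes, so that the levels of single family members are uncertain.

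**Figure D3:**
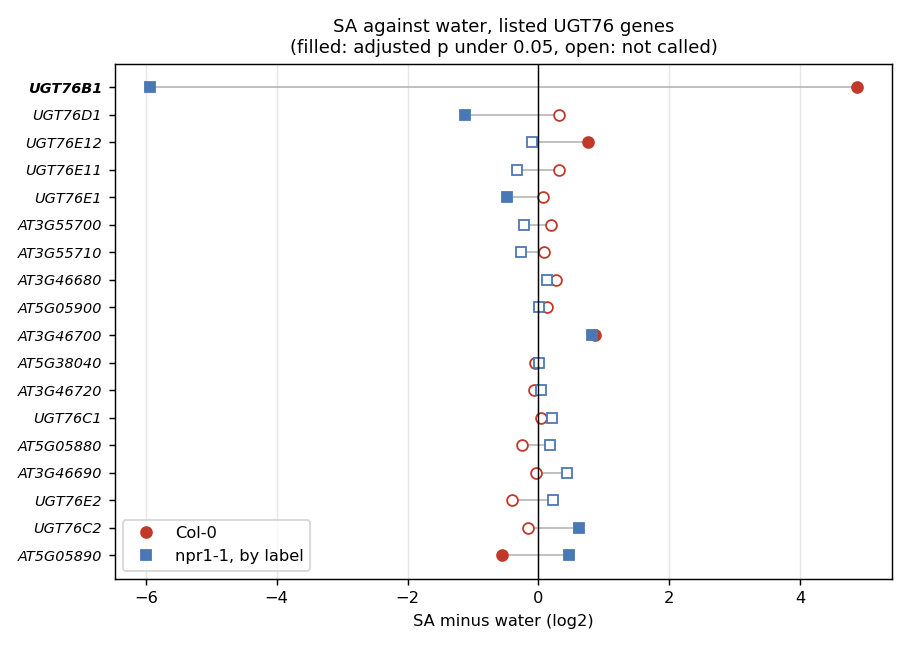
Log2 difference between SA and water (horizontal axis) for the 18 listed UGT76 genes (vertical axis, sorted by interaction), in Col-0 as red circles and by the *npr1-1* labels as blue squares, filled at an adjusted p under 0.05. *UGT76B1* lies at 4.87 and −5.94, and the other 17 lie between −1.13 and 0.87.

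Glutaredoxins reduce disulfides with glutathione, and the plant-specific branch that holds *GRX480* and *ROXY1* acts with TGA factors. Of 26 other listed glutaredoxins 18 were measured. In Col-0 3 of them rose with SA, 3 fell and 12 did not pass (median 0.04), where 10.1% of all probe sets were called higher and 13.4% lower. By the *npr1-1* labels 1 was higher and 11 were lower under SA (median −0.47), when 14.8% and 13.4% of all probe sets were called higher and lower with a median of 0.00076. The interaction was called positive for 2 and negative for 10, against 16.9% and 15% of all probe sets. With quantile normalization and with centring on the median, 10 and 12 of the 18 were called lower by the *npr1-1* labels. Some of the 18 were dim in every group, such as AT1G03020 with group means of 0.32 to 0.62, where a response could be missed. The 11 lower calls include AT4G15660, AT4G15680, AT4G15690 and AT4G15700, which are close in locus number. Near-identical relatives can share signal on a chip of short probes, so that such calls may not be independent readings.

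*GRXC2* (AT5G40370), a glutaredoxin of the general type, had a mean level of 7.76 with water and 8.72 with SA in Col-0, and 8.74 with the water label and 7.40 with the SA label in *npr1-1*. It rose by 0.96 in Col-0 and had an interaction of −2.29 (adjusted p = 2.25e-06 from limma). AT2G30540 had −1.43 by the *npr1-1* labels and an interaction of −1.87. Among the listed loci AT3G62950 and AT1G06830 went the other way, falling by 2.02 and by 1.36 in Col-0, with interactions of 2.20 and 1.88. *ROXY1* (AT3G02000), which shapes petals, was at 0.97 to 1.08 in the group means and was not called with SA in either genotype.

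**Figure D4:**
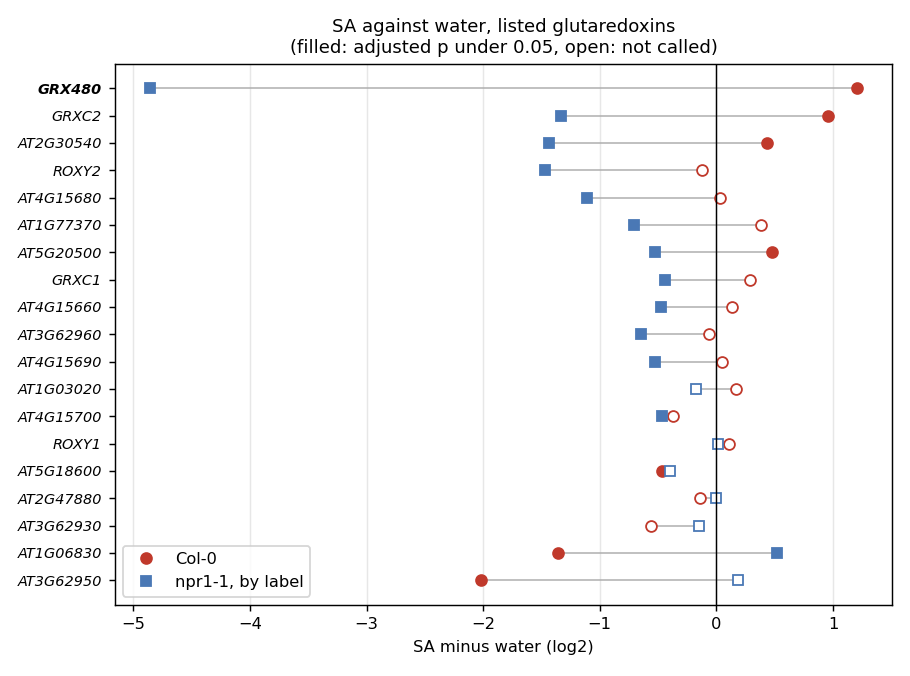
Log2 difference between SA and water (horizontal axis) for the 19 listed glutaredoxins (vertical axis, sorted by interaction), in Col-0 as red circles and by the *npr1-1* labels as blue squares, filled at an adjusted p under 0.05. *GRX480* lies at 1.21 and −4.86, and AT3G62950 and AT1G06830 at the bottom fell in Col-0.

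Few other genes of the SA pathway have a probe set of their own in this annotation. Of 12 other listed genes that modify SA 3 were measured. *WES1* (AT4G27260, also *GH3.5*), which joins amino acids to auxin and to SA, had levels of 8.10, 7.60, 6.43 and 7.06 in Col-0 water, Col-0 SA, *npr1-1* water and *npr1-1* SA by label. Its interaction was 1.13 (adjusted p = 0.000837 from limma), and it fell by 0.50 in Col-0 (adjusted p = 0.0230 from limma). The fall did not pass without replicate 1 or 2 of Col-0 water or replicate 1 of Col-0 SA (−0.44, −0.55 and −0.35, adjusted p = 0.136, 0.0682 and 0.182 from limma). *UGT74F1* (AT2G43840), a glucosyltransferase of SA, and *BSMT1* (AT3G11480), which methylates it, were at or under 0.77 in every group and were not called with SA in either genotype. Without replicate 1 of Col-0 SA the difference of *UGT74F1* in Col-0, 0.36 over all arrays, became 0.46 and passed (adjusted p = 0.0450 from limma).

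Of 9 other listed genes of the EDS1 module 1 was measured, AT3G48080. Its level was 1.03 ± 0.199 in Col-0 water, 1.65 ± 0.0891 in Col-0 SA, 2.45 ± 0.685 with the label *npr1-1* water and 0.30 ± 0.374 with the label *npr1-1* SA (each SD, n = 2). The difference of 0.61 in Col-0 was not called (adjusted p = 0.130 from limma), but it passed with the Col-0 arrays fitted alone (adjusted p = 0.0194 from limma). It also passed when either array labelled *npr1-1* water was left out of the fit. Its interaction of −2.77 (adjusted p = 0.000119 from limma) had, as labelled, the sign of *UGT76B1* and *GRX480*. Replicate 2 labelled *npr1-1* SA read 0.03, above only 0.64% of probe sets, so that the size of this interaction rests in part on a very dim value.

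Of 15 listed regulators of SA and of systemic acquired resistance 2 were measured. *WRKY53* (AT4G23810), whose product is a WRKY factor active in leaf senescence, was at 6.56 with the label *npr1-1* water and at 4.94 with the label *npr1-1* SA (log2 difference −1.62, adjusted p = 1.91e-06 from limma) and was not called in Col-0. AT5G52810 was at 3.05, 3.71, 5.06 and 0.68 in Col-0 water, Col-0 SA, *npr1-1* water and *npr1-1* SA by label, with an interaction of −5.04 (adjusted p = 6.21e-09 from limma). None of the listed genes of SA synthesis (9), of SA receptors, NIMIN proteins and TGA factors (15) or of PR proteins (3) has a probe set named for it alone, and they are not analysed here. Of 12 other senescence-associated genes only *SAG29* (AT5G13170), a sugar transporter, was measured, and it was not called with SA in either genotype.

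Over all 24 other measured genes of the SA pathway and the glutaredoxins (of 89 listed), SA raised 4 and lowered 4 in Col-0, where 10.1% of all probe sets were called higher and 13.4% lower. By the *npr1-1* labels 2 were higher and 14 lower under SA, against 14.8% and 13.4% of all probe sets. The interaction was called positive for 3 and negative for 14, against 16.9% and 15%. Most of this repeats the glutaredoxins, which are 18 of the 24. They gave 11 of the 14 lower calls by the *npr1-1* labels and 10 of the 14 negative interactions. Near-identical glutaredoxins can share signal, so that these counts may not be of independent readings. The medians were 0.12 for Col-0, −0.47 for the *npr1-1* labels and −0.58 for the interaction, against 0.02, 0.00076 and −0.03 over all probe sets.

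**Figure D5:**
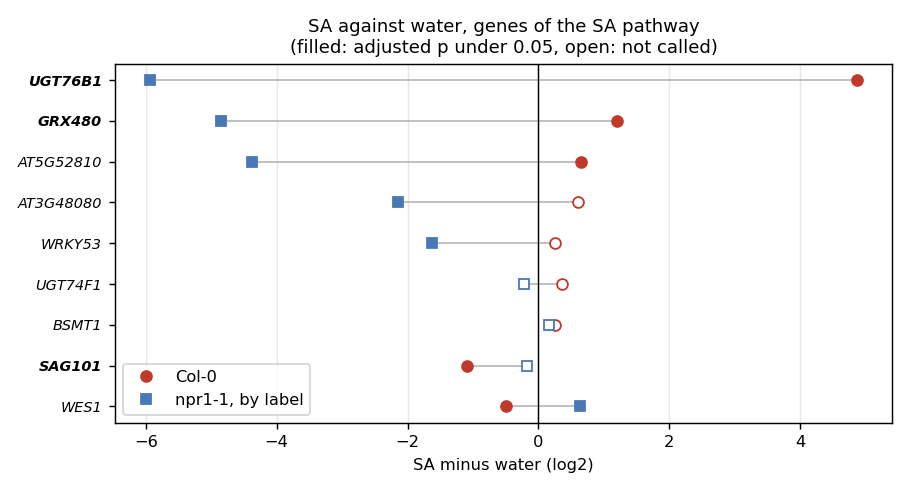
Log2 difference between SA and water (horizontal axis) for the measured genes that modify SA, act with EDS1 or regulate SA, together with *GRX480* (vertical axis, sorted by interaction), in Col-0 as red circles and by the *npr1-1* labels as blue squares, filled at an adjusted p under 0.05. *UGT76B1*, *GRX480* and AT5G52810 are lowest by the *npr1-1* labels, at −5.94, −4.86 and −4.38, while *SAG101* and *WES1* fell in Col-0.

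For each member, the genes whose 8 values went most closely with its own were sought among named genes with an SD of at least 0.5 over the arrays (2226 candidates for *UGT76B1* and *GRX480*, 2227 for *SAG101*). For *UGT76B1* they were *NDB2* (AT4G05020), an NAD(P)H dehydrogenase, AT5G45500 and AT3G07600, with Pearson r = 0.995, 0.995 and 0.993. For *GRX480* they were AT1G32120, AT1G66880 and *SUFE2* (AT1G67810), a gene of sulfur transfer, with r = 0.994 for each. For *SAG101* they were *CML41* (AT3G50770), a calmodulin-like protein, AT4G18340 and AT5G44050, with r = 0.980, 0.978 and 0.966. These values are a description over 8 arrays that fall into 4 groups, and the points share arrays, so that mostly 4 group means are compared. *SUFE2*, for instance, was at 4.20, 5.01, 4.67 and 1.65 in Col-0 water, Col-0 SA, *npr1-1* water and *npr1-1* SA by label. *CML41* was at 6.40 in Col-0 water and between 4.94 and 5.23 in the other groups, the pattern of *SAG101*.

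Other features of the samples moved with the groups. Of 8 genes of photosynthesis taken as shoot markers 4 were measured, and all 4 fell in Col-0 SA and were higher under the *npr1-1* SA label. Their mean level per array was 8.83 to 8.90 in Col-0 water, 7.50 to 7.51 in Col-0 SA, 8.35 to 8.42 for *npr1-1* water and 9.06 to 9.22 for *npr1-1* SA. Of 12 root markers 2 were measured, with means of 4.1 to 4.19, 2.61 to 2.72, 2.98 to 3.06 and 3.77 to 3.90 in the same order. *PYK10*, a beta-glucosidase of roots, fell by 2.70 in Col-0, and *GH9C1* was under 0.70 in every group mean. The shoot markers were thus present, and of the root markers *PYK10* alone carried the level. Of 7 flower markers the 2 measured had means per array of 0.0865 to 0.729. An actin control of the chip read higher at the end of its transcript than at the start by 3.66 in Col-0 water, and by 5.0, 5.08 and 5.01 in Col-0 SA, *npr1-1* water and *npr1-1* SA. Col-0 water, the group in which *SAG101* was high, was lowest in this measure and in the same difference for GAPDH (0.63 against 1.07 to 1.17). For ubiquitin it was not, with 1.03 in Col-0 water, 1.46 in Col-0 SA, 0.96 for *npr1-1* water and 1.64 for *npr1-1* SA. Nor was it lowest in a second actin control of the chip. The end and start of that control read 7.31 and 1.98 in Col-0 water, but 7.39 and 2.36 in Col-0 SA, a smaller difference. A second GAPDH control did have its smallest difference in Col-0 water (7.27 and 4.73, against 7.88 and 4.52 for *npr1-1* water). A dap control of the chip read 7.44 at its end in Col-0 SA and 6.18 to 6.40 in the other groups. The part of these features in the values of *UGT76B1*, *GRX480* and *SAG101* was not tested.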

How the data were processed

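The deposited values are log2 levels, 1 per probe set and array, which the authors had normalized and summarised. Their methods name GCOS and RMA in affylmGUI, while Affymetrix Expression Console stands in the submitters' notes. Versions are not given in the sources used here. Precision is limited by the number of arrays.

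Control probe sets (64) were left out, and the other 22746 were tested without a filter. Of those tested, 13513 have 1 symbol in the platform annotation, 503 several and 8730 none listed, and 13436 were matched to the TAIR10.1 gene table. The brightest probe set was used where a gene had several. Means of the 4 groups were fitted in limma 3.58.1 in R 4.3.3 (statmod 1.5.0), without a block, and p was adjusted over all probe sets after Benjamini and Hochberg. The interaction contrast stands in for the ANOVA of the methods. An exact test of 2 against 2 arrays cannot go below p = 0.333. The replicates are called biological and independent. The p-values rest on the spread between these arrays, which limma moderates with that of all probe sets.

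The members and lists were chosen with earlier results of these data known. Named genes are the members, the measured genes of each list (where over 8, the 5 with the smallest adjusted p for the interaction) and the 3 genes most like each member. *ROXY1* and the markers were named after their values were seen. Of 45 listed genes measured, 26 have no symbol in the gene table and are given by locus. Alternatives were a replicate block, quantile normalization, median centring, a robust variance with a trend, unmoderated tests, removal of the dimmest 25% of probe sets, only the arrays compared, exchanged *npr1-1* labels (added after seeing the data), and each array left out. The limma fit was tested on simulated data for the response in Col-0 and for the interaction. Of 100 simulated log2 changes of 1, it called 78 for the response in Col-0 and 46 for the interaction. Of 100 changes of 2 it called 99 and 91. A difference that did not pass can thus still be present. Far fewer probe sets were changed in the simulation than are called in these data.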

Additional observations from a re-analysis of the deposited data

Results flagged for a closer look

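For several genes named above the response to SA was not the same by the *npr1-1* labels as in Col-0, with an interaction in limma at an adjusted p under 0.05, as for 32% of all probe sets. The size of each interaction rests on the labels of the *npr1-1* arrays, and so does the direction for some of these genes, such as *UGT76B1*. The values with these labels exchanged are given with the other alternatives. The interaction was −10.81 for *UGT76B1*, −6.06 for *GRX480* and 0.93 for *SAG101*. It was −2.77 for AT3G48080, −5.04 for AT5G52810, −1.88 for *WRKY53* and 1.13 for *WES1*. Among the glutaredoxins it was −2.29 for *GRXC2*, −1.87 for AT2G30540, 2.20 for AT3G62950 and 1.88 for AT1G06830. In the UGT76 family it was −1.44 for *UGT76D1*, −0.85 for *UGT76E12*, 0.78 for *UGT76C2* and 1.02 for AT5G05890. Apart from the members, the genes named in these lists were picked by the smallest adjusted p for this interaction. Their calls are therefore no test of the lists. Over the 17 other UGT76 genes it was called positive for 2 and negative for 3, against 16.9% and 15% of all probe sets.

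For *UGT74F1* the interaction was −0.58 (adjusted p = 0.0210 from limma), and it did not pass without replicate 1 or 2 of Col-0 water, replicate 2 of Col-0 SA, or replicate 2 of *npr1-1* water or SA (−0.57, −0.59, −0.47, −0.55 and −0.56, adjusted p = 0.0537 to 0.0800). For *SAG29* it was 0.60 (adjusted p = 0.0232 from limma), and it did not pass without replicate 1 of Col-0 water, replicate 1 of Col-0 SA, replicate 2 of *npr1-1* water, or replicate 1 or 2 of *npr1-1* SA (0.53, 0.47, 0.56, 0.60 and 0.59, adjusted p = 0.0553 to 0.0894). No group has the 4 arrays that a search for single outlying arrays would need.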

How the results depend on the processing

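Of 312 values of *UGT76B1*, *GRX480* and *SAG101* under the alternatives, 309 kept direction and side of the threshold. The exceptions were of *SAG101*, none of them called. Its difference by the *npr1-1* labels was 0.0155 without replicate 1 of *npr1-1* water (−0.35 to 0.0155 over the arrays left out). Its difference between the genotypes under SA was −0.0311 with quantile normalization and −0.0776 with centring on the median. Without any 1 array the log2 difference in Col-0 was 4.79 to 4.96 for *UGT76B1*, 1.1 to 1.31 for *GRX480* and −1.13 to −1.06 for *SAG101*. For 15 other listed genes, over the 2 SA responses and the interaction, 616 of 657 values kept direction and side, and 0 changed sign (chosen after seeing the data). Outside these, uncalled differences of named genes turned under a scaling, such as that of *ROXY1* by the *npr1-1* labels, −0.01 with quantile normalization.

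With the water and SA labels of *npr1-1* exchanged, an alternative added after seeing the data and not counted above, the interaction called 3608 probe sets in place of 7274. It turned to 1.0629 for *UGT76B1*, 3.6502 for *GRX480*, 1.5388 for AT3G48080, 0.3807 for *GRXC2*, 0.9953 for AT2G30540, 3.7219 for AT5G52810, 1.3621 for *WRKY53* and 0.8127 for *UGT76D1*. It turned to −0.1335 for *WES1*, −0.0369 for *SAG29* and −0.4755 for *UGT76C2*, and of these 11 *GRXC2*, *WES1*, *SAG29* and *UGT76C2* were not called. The sign was kept for *SAG101* (1.2617), AT3G62950 (1.8304) and AT1G06830 (0.8369), all of them still called. For AT5G05890, *UGT76E12* and *UGT74F1* the sign was also kept (0.0854, −0.6669 and −0.1352). None of these last was called (adjusted p = 0.858, 0.0556 and 0.704 from limma).

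Without moderation fewer probe sets were called, 2996 in place of 5342 for SA in Col-0, 3978 in place of 6419 by the *npr1-1* labels, and 3607 in place of 6134 between the genotypes in water. The counts were 3847 in place of 6481 for *npr1-1* SA against Col-0 water and 4115 in place of 6624 for *npr1-1* water against Col-0 SA. Centring on the median moved the median difference between the genotypes under SA from −0.02 to −0.15, and the share of its calls that were higher on the *npr1-1* arrays from 53.2% to 40.5%. The corresponding share went from 53.1% to 43% for *npr1-1* SA against Col-0 water and from 59.7% to 47.5% for *npr1-1* water against Col-0 SA.

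Replicate numbers did not pair the arrays, since arrays of the same number deviated from their group means with r = −0.19 to 0.08 across probe sets. With the replicate number as a block no call of the 3 members changed, and *UGT76B1*, *GRX480* and *SAG101* had the same differences in Col-0 (4.87, 1.21 and −1.09). The call of AT3G48080 in Col-0 was gained (0.61, adjusted p = 0.0334 with the replicate block).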
